A study of Mus musculus with 5 samples.

Results

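The genes described here carry, activate, sense and answer corticosteroids in liver tumours of mice: Serpina6, Hsd11b1, Srd5a1, Nr3c1, Fkbp5, Tsc22d3, Sgk1 and Zbtb16. They are 8 of the 22287 genes in the deposited table and were found by their symbols. The set was chosen by the FPKM of Serpina6, which had higher values in knockout than in wild-type tumours, so the comparison of knockout with wild type is given for the 8 genes as a description, with no test to support it. All 8 passed the filter on low values, a mean of at least 1 FPKM over the 5 libraries (FPKM is a fragment count per gene length, scaled to the size of the library), which left 10132 genes.

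Tumours came from 3 knockout (KO) samples, with the genotype lnc-CTHCC-/-, and 2 wild-type (WT) samples. lnc-CTHCC is a long non-coding RNA. Every sample was a liver tumour of the strain C57BL/6, and both genotypes had received DEN, a chemical carcinogen of the liver, and CCl4, a liver toxicant, for 5 months. How the deletion was made, the sex of the mice, the hour of sampling and whether each sample was a separate animal are not given in these sources, and lnc-CTHCC itself was not analysed here. The p-values therefore measure the spread of these samples only, part of which may be technical. The WT libraries stood apart from each other (r = 0.965 across genes, the lowest of all pairs of libraries), so the log2 differences of the 8 genes and the medians of gene lists are given without each of them where that changed a direction.

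Corticosterone, the main glucocorticoid of mice, travels in plasma bound to corticosteroid-binding globulin, which hepatocytes secrete. Inside the hepatocyte, 11-beta dehydrogenase regenerates the active hormone from its inert 11-keto form, and A-ring reductases begin its removal. The glucocorticoid receptor is held by Hsp90 chaperones until the hormone binds, and then acts on target genes through response elements. These are taken here as pairs of AGAACA half-sites that face each other 3 bases apart. In the liver the receptor is known for driving gluconeogenic and amino acid degrading enzymes.

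The full element, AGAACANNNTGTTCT, was looked for in the RefSeq windows (build GRCm38.p6) that run from 250 bases before to 50 bases after a gene start. Windows were used for 5 of the 8 genes (Fkbp5, Hsd11b1, Sgk1, Srd5a1 and Tsc22d3), 12 in all, since genes with several starts have several windows. The sequence is its own reverse complement, so both strands were read at once. Only exact matches inside the windows were counted, so inexact elements and elements elsewhere in a gene were not looked for. The full element was present in 3 of 32851 windows of all genes (0.00913%), and 1 of these 3 belonged to Sgk1, the serum and glucocorticoid regulated kinase. In that window, chr10:21993640-21993939 on the plus strand, the element lay at 21993701 to 21993715, which is 189 to 175 bases before that gene start. The window is shown because it holds the element, which is in capitals, beside a window of Tsc22d3, chrX:140600473-140600772 on the minus strand, in which the capitals mark a lone half-site.
Sgk1: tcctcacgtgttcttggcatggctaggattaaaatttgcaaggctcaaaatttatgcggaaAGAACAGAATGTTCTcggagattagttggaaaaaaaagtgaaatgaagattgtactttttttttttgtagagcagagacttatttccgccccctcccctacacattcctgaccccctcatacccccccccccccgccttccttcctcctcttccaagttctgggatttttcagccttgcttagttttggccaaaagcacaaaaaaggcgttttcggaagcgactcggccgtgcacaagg
Tsc22d3: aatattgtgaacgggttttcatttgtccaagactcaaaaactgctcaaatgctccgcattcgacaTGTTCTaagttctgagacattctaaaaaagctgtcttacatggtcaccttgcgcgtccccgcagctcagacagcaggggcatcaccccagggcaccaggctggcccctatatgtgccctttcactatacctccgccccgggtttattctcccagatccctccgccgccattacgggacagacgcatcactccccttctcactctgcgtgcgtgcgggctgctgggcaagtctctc

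A half-site, AGAACA or its reverse complement TGTTCT, was present in 4 of the 12 windows, 3 of Sgk1 and 1 of Tsc22d3, and in 19.0% of all windows. The full element contains a half-site at each end. The Sgk1 window shown holds 3 half-sites in all, and the one outside the element, near the window start, is left in lower case. The core ATTGAT (reverse complement ATCAAT), bound by the transcription factor Onecut1, was present in 0 of the 12 windows and in 7.54% of all windows. No window of Serpina6, Nr3c1 or Zbtb16 was used, so these counts do not cover those genes. These matches describe the letters of the windows, not binding.

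Serpina6, which encodes corticosteroid-binding globulin, was at 203, 283 and 238 FPKM in the KO libraries (KO 1, KO 2 and KO 3), against 76.9 and 89.0 FPKM in the WT libraries (WT 1 and WT 2). Each KO value was more than the sum of both WT values. The means were 241 ± 40.3 FPKM (SD, n = 3) in KO and 83.0 ± 8.57 FPKM (SD, n = 2) in WT tumours, a ratio of 2.91. On the log2(FPKM + 1) scale the difference was 1.52 (SE 0.189), which was the fourth highest of the 10132 genes, as the choice of the set implies. It stayed between 1.40 and 1.64 in 13 alternative settings.

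The gene (ENSMUSG00000060807) lies on chromosome 12 from 103646630 to 103657212 on the minus strand, in a cluster of clade A serpins (coordinates of genes are from GENCODE M21 on GRCm38). Its nearest protein-coding neighbours in the table, on either side, were Serpina10, the inhibitor of activated factor X known as protein Z-dependent protease inhibitor, and Serpina16. Serpina10 was at 69.6, 75.2 and 81.4 FPKM in KO and at 62.2 and 75.6 FPKM in WT libraries, so the genotypes overlapped. Serpina16 was listed at 0 in all 5 libraries. Of 13 clade A serpins tested, which leave out Serpina6, the KO mean was higher in 3 and lower in 10. Over all genes tested, the KO mean was higher in 61.4%. The median log2 difference of the serpins was -0.18, against 0.05 over all genes tested. The median of the serpins moved with single libraries, to -0.03 without KO 2 and -0.04 without WT 1. The median of all genes tested was 0.06 without KO 2, -0.07 without WT 1 and 0.16 without WT 2. None of the 13 passed the test (limma, adjusted p under 0.05), and 0 had an unadjusted p under 0.05. Serpina1e was at 4080, 1871 and 2875 FPKM in KO and at 3960 and 3900 FPKM in WT, and Serpina3k at 1785, 1781 and 2412 FPKM in KO and at 1536 and 1664 FPKM in WT. Values of the Serpina1 and Serpina3 copies are uncertain as far as similar genes shared reads.

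Hepatocytes also secrete albumin, which binds corticosterone weakly. The ratio of Serpina6 to Alb within a library was 0.00248, 0.00361 and 0.00287 in KO, against 0.000816 and 0.00119 in WT (the log2 difference of Alb itself was -0.05). This ratio restates the difference in Serpina6 on which the set was chosen. Set against Serpina7, the thyroxine-binding globulin of the same serpin clade, Serpina6 was 7.84, 14.7 and 13.1 times as high in KO and 3.97 and 4.61 times as high in WT.

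Among 10 plasma hormone binding proteins tested, the KO mean was higher in 5 and lower in 5 (higher in 61.4% of all genes tested). Their median log2 difference was 0.04, and its sign changed between settings. It was 0.11 without WT 1 and -0.14 without WT 2, and the sign was opposite in 4 of 13 alternatives. None passed the test. An unadjusted limma p under 0.05 was found for 327 of the 10132 genes tested. It was found for 3 of the 9 other than Serpina6, all lower in KO. These 3 were Orm1 and Orm2, orosomucoids that bind steroids and are acute phase proteins, and Ttr, transthyretin, a carrier of thyroxine. Orm1 was at 222, 373 and 405 FPKM in KO and at 478 and 998 FPKM in WT (limma adjusted p = 0.999). Orm2 was at 3.81, 6.35 and 13.8 FPKM in KO and at 17.7 and 103.5 FPKM in WT. Ttr was at 2387, 2353 and 2604 FPKM in KO and at 4216 and 2955 FPKM in WT. Gc, the vitamin D-binding protein, had a log2 difference of 0.21, with all KO values above both WT values.

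**Figure D1:**
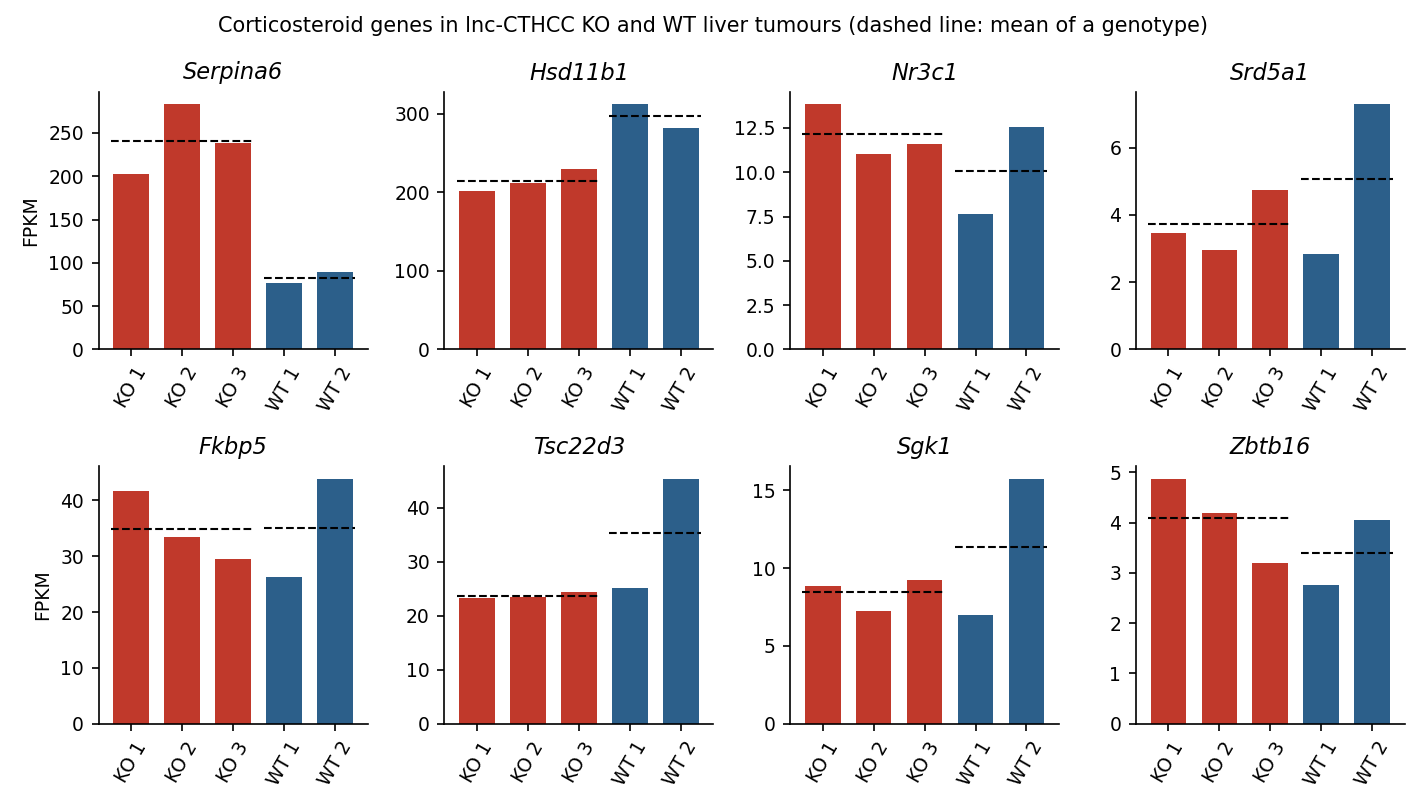
FPKM of each of the 8 genes in every library, with KO libraries in red on the left, WT libraries in blue on the right and a dashed line at the mean of each genotype (n = 3 KO and n = 2 WT); each panel has its own axis from 0. Serpina6 bars run from 203 to 283 FPKM in KO against 76.9 and 89.0 FPKM in WT, while the WT 2 bar stands far above the WT 1 bar for Srd5a1, Tsc22d3 and Sgk1.

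Of the 8 genes, 3 had values that did not overlap between the genotypes, with Serpina6 above WT in all KO libraries and Hsd11b1 and Tsc22d3 below it. Among all genes tested, 15.1% did not overlap in either direction, 9.78% with KO above and 5.29% with KO below. None of the 8 passed the limma test across all genes, which 1 of 10132 genes (0.00987%), Onecut1, did. Unadjusted p-values were under 0.05 for 2 of the 8, Serpina6 and Hsd11b1, and for 327 of all genes tested. In the authors' deposited table, the false discovery rate was under 0.05 for 1 of the 8, Serpina6, and for 36 of all 22287 genes (0.162%). These counts come from the contrast on which the set was chosen, and nothing is read from them.

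Hsd11b1 encodes the 11-beta dehydrogenase that regenerates corticosterone. It was at 202, 212 and 230 FPKM in the KO libraries and at 312 and 282 FPKM in the WT libraries. Every KO library was lower than both WT libraries, and the difference ran opposite to that of Serpina6. The means were 215 ± 14.0 FPKM (SD, n = 3) in KO and 297 ± 21.7 FPKM (SD, n = 2) in WT, a ratio of 0.723 and a log2 difference of -0.47 (SE 0.160). Across the alternative settings the log2 difference lay between -0.54 and -0.39. Hsd11b1 (chromosome 1, 193221634 to 193264075, minus strand) overlaps Lamb3 on the plus strand, which had a mean of 0.438 FPKM over the 5 libraries.

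Because both genes were abundant, their balance could be read within each library. The ratio of Serpina6 to Hsd11b1 FPKM was 1.003, 1.33 and 1.04 in KO, against 0.246 and 0.316 in WT. The ratio carries the Serpina6 difference on which the set was chosen, and is given as a description.

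Srd5a1, the type 1 steroid 5-alpha reductase, was at 3.47, 2.95 and 4.74 FPKM in KO and at 2.83 and 7.29 FPKM in WT libraries. The WT libraries held both the lowest and the highest value, so the KO values lay between them. Its log2 difference of -0.27 (SE 0.323) became -0.83 without WT 1 and 0.28 without WT 2. Srd5a1 (chromosome 13, 69573449 to 69611442, minus strand) overlaps Nsun2 on the plus strand, an RNA methyltransferase at 15.9, 16.4 and 15.1 FPKM in KO and at 13.1 and 21.01 FPKM in WT. Whether the authors' counting used strand is not given in these sources, so the low Srd5a1 values are uncertain as far as reads of Nsun2 fell on it.

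Enzymes that convert or clear steroids formed a list of 22, of which 20 were tested, Hsd11b1 and Srd5a1 among them. The KO mean was higher in 5 and lower in 15, and it was higher in 61.4% of all genes tested. The median log2 difference of the list was -0.13, against 0.05 over all genes. None passed the test. An unadjusted limma p under 0.05 was found for 327 of the 10132 genes tested and for 1 of the other 18 enzymes. This was Cyp3a11, a cytochrome P450 that hydroxylates steroids and drugs, at 159, 171 and 320 FPKM in KO and at 450 and 560 FPKM in WT (log2 difference -1.28, SE 0.293, limma adjusted p = 0.822). Cyp3a25, of the same family, was at 31.0, 61.1 and 60.3 FPKM in KO and at 66.2 and 85.5 FPKM in WT. Cyp3a genes are close copies, and their values are uncertain as far as they shared reads. Hsd17b6 was at 38.4, 67.5 and 49.2 FPKM in KO and at 166 and 55.4 FPKM in WT, and Cyp2d9, a steroid hydroxylase of male mouse liver, at 119, 156 and 147 FPKM in KO and at 150 and 338 FPKM in WT. Hsd11b2, the kidney enzyme that inactivates corticosterone, was listed at 0 in the 3 KO libraries and had a mean of 0.01 FPKM in WT. The list median was -0.35 without WT 1 and 0.04 without WT 2.

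Nr3c1, the glucocorticoid receptor, was at 13.8, 11.0 and 11.6 FPKM in KO and at 7.62 and 12.6 FPKM in WT libraries. WT 1 was the lowest library and WT 2 lay within the KO range. The means were 12.2 ± 1.48 FPKM (SD, n = 3) in KO and 10.1 ± 3.49 FPKM (SD, n = 2) in WT, a log2 difference of 0.28 (SE 0.229) that was -0.05 without WT 1 and 0.60 without WT 2. The gene (ENSMUSG00000024431) lies on chromosome 18 from 39410545 to 39519421 on the minus strand. Relative to Nr3c2, the mineralocorticoid receptor, which also binds corticosterone, Nr3c1 was 10.4, 7.17 and 5.94 times as high in KO and 8.66 and 8.78 times as high in WT.

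The 28 tested chaperones and cofactors of the receptor, a list that includes Nr3c1 and Fkbp5, had 20 higher and 8 lower means in KO. Over all genes tested, the KO mean was higher in 61.4%. The median log2 difference of the list was 0.12, against 0.05 over all genes tested. The list median was -0.01 without WT 1 and 0.31 without WT 2. None passed the test, and 0 had an unadjusted p under 0.05. Hsp90aa1, an inducible Hsp90, was at 72.1, 53.9 and 62.7 FPKM in KO and at 32.2 and 59.4 FPKM in WT. Hdac2, a histone deacetylase, and Ep300, a histone acetyltransferase, had log2 differences of 0.34 and 0.45, with overlapping genotypes.

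**Figure D2:**
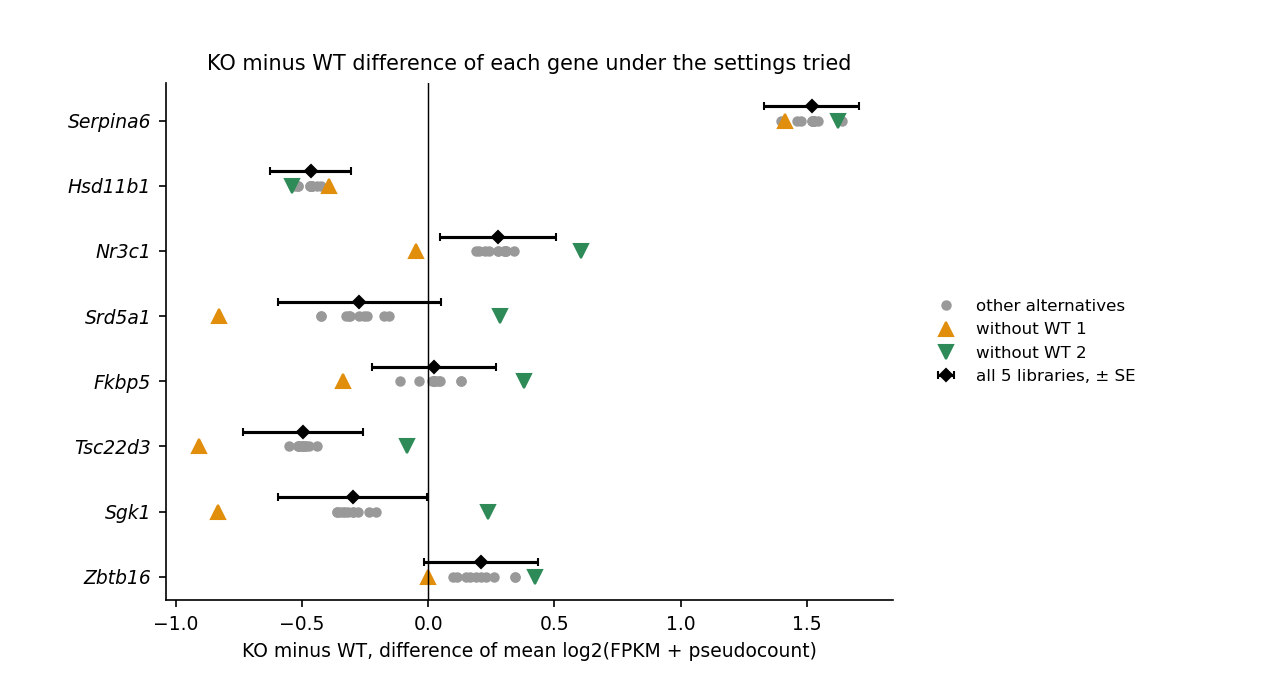
Difference of KO minus WT for each gene, on the log2 scale, with all 5 libraries (black diamond, ± SE), without WT 1 (orange), without WT 2 (green) and in the other alternatives (grey). Serpina6 stays between 1.40 and 1.64 and Hsd11b1 between -0.54 and -0.39, while Nr3c1, Srd5a1, Fkbp5, Sgk1 and Zbtb16 lie on both sides of 0 according to which WT library is left out.

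Fkbp5, Tsc22d3, Sgk1 and Zbtb16 are induced by the receptor in many tissues. Fkbp5 encodes a co-chaperone that lowers the affinity of the receptor for its hormone. It was at 41.7, 33.5 and 29.6 FPKM in KO and at 26.3 and 43.9 FPKM in WT libraries. The WT libraries enclosed all KO values, and the means of 34.9 ± 6.18 FPKM (SD, n = 3) in KO and 35.1 ± 12.5 FPKM (SD, n = 2) in WT were nearly equal. The log2 difference was 0.02 (SE 0.245), and it was -0.34 without WT 1 and 0.38 without WT 2.

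Tsc22d3 encodes the glucocorticoid-induced leucine zipper, a mediator of anti-inflammatory effects. It was at 23.3, 23.4 and 24.4 FPKM in KO and at 25.2 and 45.4 FPKM in WT libraries. The KO libraries were almost level, with a coefficient of variation of 2.50%, and 97.1% of all genes tested had a larger range between KO libraries. WT 1 lay just above them and WT 2 far above. The log2 difference of -0.50 (SE 0.239) was -0.91 without WT 1 and -0.08 without WT 2, so its size rested on WT 2.

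Sgk1, a kinase that regulates ion transport, was at 8.83, 7.27 and 9.23 FPKM in KO and at 6.99 and 15.8 FPKM in WT libraries. WT 2 stood apart from the other 4 libraries, and the log2 difference of -0.30 (SE 0.296) was -0.83 without WT 1 and 0.24 without WT 2. Sgk1 (chromosome 10, 21882184 to 21999903, plus strand) is the gene whose window holds the full response element shown above. Zbtb16, a zinc finger transcription factor known as PLZF, was at 4.88, 4.19 and 3.20 FPKM in KO and at 2.76 and 4.05 FPKM in WT. Its genotypes overlapped, and the log2 difference of 0.21 (SE 0.226) was -0.0023 without WT 1 and 0.42 without WT 2.

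Fkbp5 was also set against the receptor within each library. The ratio of Fkbp5 to Nr3c1 FPKM was 3.01, 3.03 and 2.55 in KO and 3.45 and 3.50 in WT. WT 2 was 1.67 times WT 1 in Fkbp5 itself but hardly in this ratio, which was chosen after its values were seen.

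WT 2 exceeded WT 1 in 7 of the 8 genes, all except Hsd11b1, and in 72.3% of all genes tested. The log2 gap between WT 2 and WT 1 was 1.11 for Srd5a1 and 1.07 for Sgk1, gaps exceeded by 2.50% and 2.86% of all genes tested. It was 0.83 for Tsc22d3, 0.72 for Fkbp5 and 0.65 for Nr3c1, against a median of 0.23 over all genes tested. For Serpina6 it was 0.21, close to that median, and for Hsd11b1 it was -0.15. With 2 WT libraries, such a gap has no replicate check.

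A wider list of glucocorticoid response genes was read in the same way. Of 31 tested, which include Fkbp5, Tsc22d3, Sgk1 and Zbtb16, 26 were higher in WT 2 than in WT 1, with a median log2 gap of 0.62. WT 2 was the highest of the 5 libraries in 18 of the 31 genes and in 35.0% of all genes tested, and WT 1 the lowest in 14 of the 31 and in 46.4% of all genes tested. Between the genotypes, the KO mean was higher in 11 and lower in 20, and it was higher in 61.4% of all genes tested. The median log2 difference of the list was -0.18, against 0.05 over all genes tested. Without WT 1 the list median was -0.50 and that of all genes -0.07, and without WT 2 they were 0.21 and 0.16. None passed the test, and 0 had an unadjusted p under 0.05.

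The 4 genes of this list with the smallest unadjusted p, the 8 genes aside, were Igfbp1, Tdo2, Pck1 and Slc38a2. Pck1, the first committed enzyme of gluconeogenesis, was at 91.3, 263 and 441 FPKM in KO and at 312 and 466 FPKM in WT. Tdo2, which begins tryptophan breakdown, was at 221, 248 and 264 FPKM in KO and at 215 and 541 FPKM in WT. Igfbp1, an IGF-binding protein induced in fasting, was at 584, 519 and 817 FPKM in KO and at 627 and 341 FPKM in WT, the reverse of Tdo2 in the WT pair. Slc38a2, an amino acid transporter, was at 26.6, 21.1 and 30.6 FPKM in KO and at 24.9 and 47.0 FPKM in WT. None of these 4 passed the test (limma adjusted p = 0.999 for each).

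**Figure D3:**
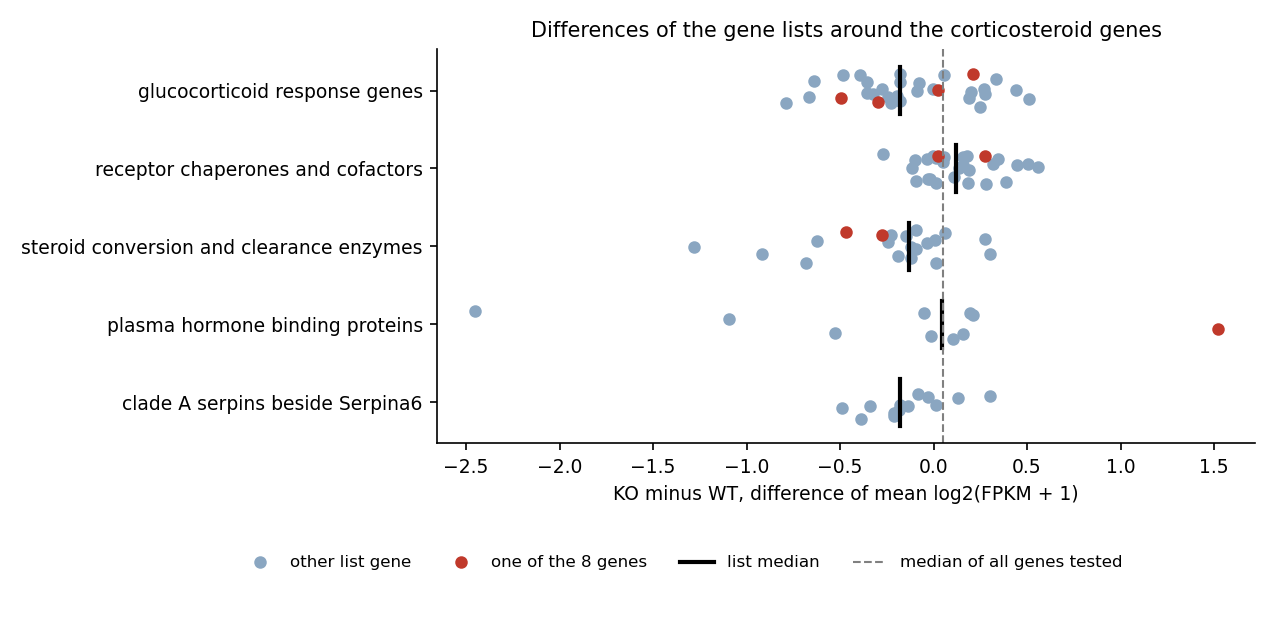
Difference of KO minus WT, log2(FPKM + 1), for every tested gene of the 5 gene lists, with the 8 genes in red, the other list genes in blue, a black bar at each list median and a dashed line at the median of all genes tested (0.05). Serpina6 at 1.52 stands to the right of all other list genes, and list medians run from -0.18 to 0.12.

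Per length, the order of mean levels in KO tumours was Serpina6 (241 FPKM), Hsd11b1 (215), Fkbp5 (34.9), Tsc22d3 (23.7), Nr3c1 (12.2), Sgk1 (8.44), Zbtb16 (4.09) and Srd5a1 (3.72). The ranges of Serpina6 and Hsd11b1 and those of Zbtb16 and Srd5a1 overlapped there, while each other neighbouring pair was apart in the 3 KO libraries. In WT tumours the order was Hsd11b1 (297 FPKM), Serpina6 (83.0), Tsc22d3 (35.3), Fkbp5 (35.1), Sgk1 (11.4), Nr3c1 (10.1), Srd5a1 (5.06) and Zbtb16 (3.41). In WT the ranges overlapped within the pairs Tsc22d3 and Fkbp5, Sgk1 and Nr3c1 and Srd5a1 and Zbtb16, while the other neighbouring pairs were apart. Hsd11b1 and Serpina6 exceeded 98.1% and 97.4% of all genes tested in mean level over the 5 libraries.

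Profiles over the 5 libraries were compared by the root mean square difference of log2(FPKM + 1), after each gene was centred on its own mean. Among the 4 genes nearest to Serpina6 were Kifc3, a kinesin, at 0.283, Onecut1, a hepatocyte homeobox factor, at 0.297, and Enc1, an actin-binding protein, at 0.362. Kifc3 was at 17.0, 18.6 and 16.4 FPKM in KO and at 7.29 and 9.13 FPKM in WT. Onecut1 was at 11.6, 9.57 and 12.04 FPKM in KO and at 2.20 and 2.39 FPKM in WT. Enc1 was at 8.38, 8.25 and 10.9 FPKM in KO and at 3.82 and 4.95 FPKM in WT. These 3 had every KO value above both WT values, as Serpina6 had by choice. They share the libraries and the authors' scaling, so likeness is a description of 5 libraries.

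The other 7 genes lay far from Serpina6, from 0.672 for Nr3c1 to 1.02 for Tsc22d3, and 1332 or more other genes were nearer to it than any of them. Srd5a1 and Sgk1 were 0.102 apart, and Sgk1 ranked 15 among all genes by nearness to Srd5a1. Tsc22d3 was 0.154 from Sgk1, at rank 152. Nr3c1, Fkbp5 and Zbtb16 lay 0.139 to 0.155 from each other, but many genes were nearer: Fkbp5 ranked 1688 and Zbtb16 1326 by nearness to Nr3c1, and Zbtb16 ranked 671 by nearness to Fkbp5. Hsd11b1 was nearest to Tsc22d3 among the set, at 0.311, where Tsc22d3 ranked 3651.

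Over all genes, the profile nearest to Hsd11b1 was that of Gpd1, the cytosolic glycerol 3-phosphate dehydrogenase (0.0310), then Mrps33 (0.0510). Those nearest to Nr3c1 were Fyttd1 (0.0184) and Zdhhc17 (0.0246), to Srd5a1 Chpt1 (0.0588) and Suox (0.0658), and to Fkbp5 Cdc37l1 (0.0383) and Fam98a (0.0479). Kcnn2 (0.0518) and Saa4 (0.0537) were nearest to Tsc22d3, Trub1 (0.0382) and Zadh2 (0.0525) to Sgk1, and Zfp362 (0.0288) and Ctsk (0.0392) to Zbtb16. Kifc3, Onecut1 and Enc1 were each farther from Serpina6 than these were from their own genes.

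**Figure D4:**
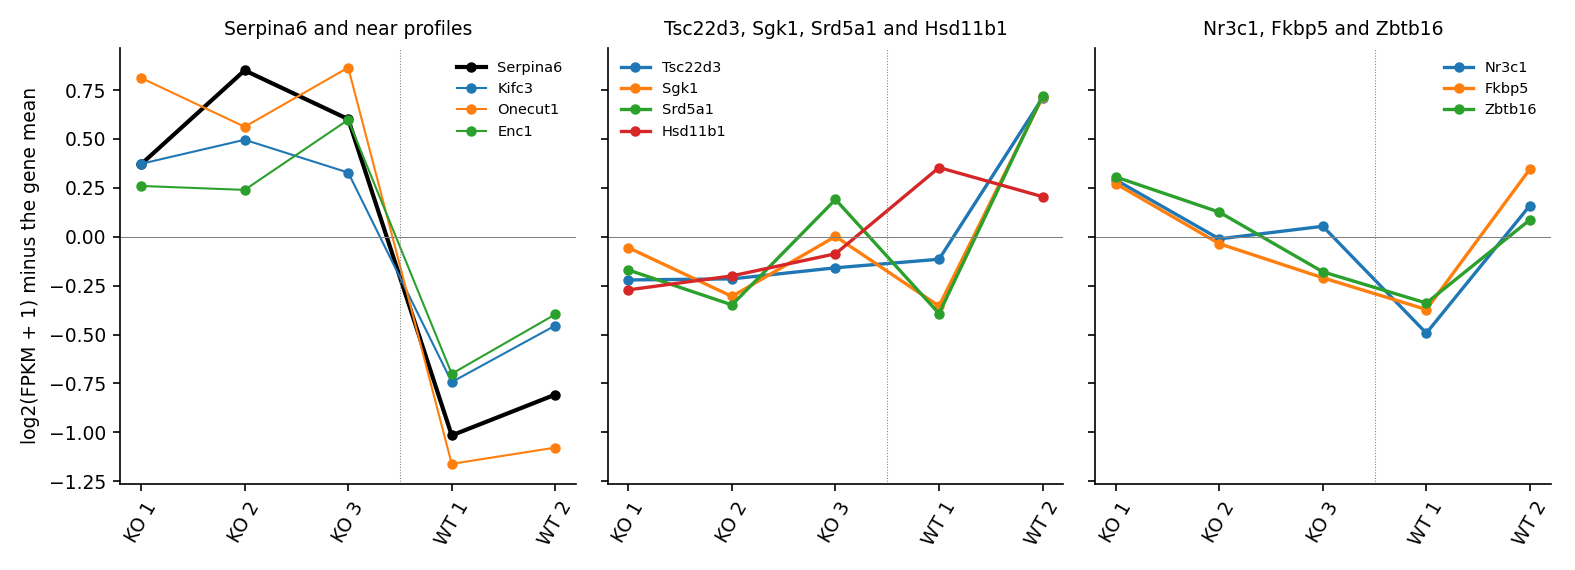
Profiles over the 5 libraries, as log2(FPKM + 1) minus the mean of each gene, with KO libraries left and WT libraries right of the dotted line: Serpina6 with Kifc3, Onecut1 and Enc1 (left), Tsc22d3, Sgk1, Srd5a1 and Hsd11b1 (middle) and Nr3c1, Fkbp5 and Zbtb16 (right). The left panel steps down at the genotype border, the middle panel peaks in WT 2 for Tsc22d3, Sgk1 and Srd5a1, and the right panel has its lowest point in WT 1.

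Markers of cell types were read beside these values, since in bulk tissue fewer cells of a type and less RNA per cell cannot be told apart. The FPKM of a library summed to between 526229 and 552619, and the depth is unknown. Of 10 hepatocyte markers, 9 were found by their symbols, and all 9 were tested. They were present throughout, with Alb at 78320 to 83027 FPKM in KO and at 94258 and 74739 FPKM in WT. Positive acute phase genes summed to 13149 to 15100 FPKM in KO and to 14735 and 19079 FPKM in WT. The KO mean was lower in 15 of the 17 tested and higher in 2, against higher in 61.4% of all genes tested. In 6 of the 17, all KO values lay below both WT values, as in 5.29% of all genes tested. None passed the test, and 5 had an unadjusted limma p under 0.05, against 327 of the 10132 genes tested. All 17 tested were higher in WT 2 than in WT 1, as were 7 of the 8 genes, all except Hsd11b1. The same held for 72.3% of all genes tested. B and plasma cell markers, of which 5 of 9 were tested, summed to 47.3 to 142 FPKM in KO and to 190 and 507 FPKM in WT. All 12 T and NK cell markers had means under 1 FPKM. Their sums were 2.18 to 4.32 FPKM in KO, 7.31 FPKM in WT 1 and 4.24 FPKM in WT 2. Lymphocytes also express Tsc22d3 and Zbtb16, and the part of these cells in the values was not tested. Among tested markers, the KO mean was higher in 8 of 8 for endothelial cells and 7 of 8 for stellate cells and fibroblasts. It was higher in 6 of 8 for macrophages and Kupffer cells, 4 of 4 for cholangiocytes and 2 of 2 for neutrophils. For hepatocytes it was higher in 4 of 9 and for B and plasma cells in 0 of 5, against 61.4% of all genes tested. None of these markers passed the test. Of 7 adrenal cortex markers, Mc2r and Nr5a1 were listed at 0 in all libraries and the list summed to 2.09 to 5.85 FPKM over the 5 libraries.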

How the data were processed

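One deposited table of 22287 genes was used, with 3 KO and 2 WT libraries of mouse liver tumour. The authors' values are FPKM per library, rounded to 2 decimals, per the file headers. Other deposited columns hold the authors' mean FPKM per genotype, log2 fold change of KO over WT, p-value and false discovery rate, whose tool is not given in these sources. HISAT2, StringTie, DESeq2, limma, bcl2fastq 2.0 and the build mm10 appear, without roles or order, per the submitters' processing notes. Depth is unknown, and intervals were left out. For 2361 genes of low values, ratios between pairs of libraries were binned, and the fullest bin held 3.98% to 5.12% of them. These ratios cannot show whether values fell on steps of 1 read. Total RNA was extracted with Trizol, per the labels' protocols.

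Genes at a mean of 1 FPKM or more were tested on log2(FPKM + 1), a scale that understates the change of low genes, by limma 3.58.1 in R 4.3.3. The model was linear, with empirical Bayes, a mean-variance trend, no covariate and 3 residual degrees of freedom, two-sided, with Benjamini-Hochberg adjustment over all 10132 genes at 0.05. The fit was tested on simulated data. Exact permutation of 3 and 2 libraries gives no p below 0.1 and was not used. The 8 genes and the 5 pathway and 10 marker lists were chosen with earlier results of these data known. Named besides the 8 genes were up to 4 genes per pathway list by the smallest unadjusted p, the 4 profiles nearest to Serpina6 and the 2 nearest to each other gene, without predicted genes; 2 genes under this rule are not reported here. Gc, Hsd11b2, Serpina7, Serpina10, Serpina16, Nr3c2, Alb, Nsun2 and Lamb3 were named for a ratio, their position or their level. As alternatives, the pseudocount was 0.1 or 5, the filter was dropped or raised to a mean of 5 FPKM, libraries were scaled to equal sums, by median ratios or by quantile normalization, the replicate number entered as a block, and each library was left out in turn. Figures were drawn with matplotlib 3.10.9.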

Additional observations from a re-analysis of the deposited data

How the results depend on the processing

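The count of genes past the threshold, 1 with all libraries (Onecut1), was 0 after quantile normalization, median-ratio scaling or scaling to equal sums, with a filter at a mean of 5 FPKM or none, and with a pseudocount of 5, and it ranged from 0 to 17 with 1 library left out; the cause was not tested. With the replicate number as a block it was 62. That fit left KO 3 without a partner, so KO 3 did not enter the difference and 1 residual degree of freedom remained. Under the block, 3 plasma hormone binding proteins were called (Serpina6, Orm1 and Orm2), 2 glucocorticoid response genes (Pck1 and Tat) and 1 steroid conversion enzyme (Cyp3a11), where 0 were called without it. The labels do not say that a number marks a shared animal or batch. The deviations of same-numbered libraries correlated at 0.0884 (number 1) and -0.241 (number 2). With 2 WT libraries the WT deviations mirror each other, so these correlations cannot decide whether same-numbered libraries shared a batch. In every other alternative 0 genes of the 5 pathway lists were called.

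Of 102 values of the 8 genes under the alternatives, 92 moved by less than 1 SD between replicates and 10 by more, all 10 with a WT library left out, for Nr3c1, Srd5a1, Fkbp5, Tsc22d3 and Sgk1. The sign differed from that with all libraries in 7, of which 5 were with a WT library left out. The other 2 were Fkbp5 after median-ratio scaling (-0.04) and without KO 1 (-0.11). With 1 library left out, medians ranged from -0.23 to -0.03 for clade A serpins, -0.14 to 0.12 for plasma binding proteins, -0.35 to 0.04 for steroid enzymes, -0.01 to 0.31 for chaperones and cofactors and -0.50 to 0.21 for response genes, against -0.07 to 0.16 for all genes. The plasma protein median was also below 0 after median-ratio scaling (-0.0093), with no filter (-0.0015) and without KO 1 (-0.02). Where 1 WT library was left, it was assumed to vary as the KO libraries did. Srd5a1 and Zbtb16 were below a mean FPKM of 5 and have no value there. The depth is unknown, and the number of WT libraries limits the precision of every difference.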
